A study of Mus musculus with 6 samples.

Results

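Metallothioneins and the transporters that carry zinc across membranes were followed in mouse colorectal cancer organoids treated with chemotherapy. The 7 genes are Mt1, Mt2, Mtf1, Slc30a1, Slc39a4, Slc39a10 and Slc39a14, chosen by name and matched to the Ensembl identifiers of the count matrix through GENCODE symbols. All 7 were found among the 24190 genes with a count, and all 7 were among the 14692 that passed the expression filter. RNA was sequenced from mouse tumor organoids (MTOs) of the line MTO54, labelled parental, which carries mutations in Apc and p53 that the control and the treated samples share. The 3 control samples received complete stem cell medium, and the 3 Folfiri samples received the same medium with SN38 at 100 nM and 5FU at 50 μg/μl (a unit given here as labelled), for 2 days. 5FU is a pyrimidine analogue that blocks thymidylate synthesis, and SN38, to which irinotecan is converted, inhibits topoisomerase I. The treatment time is that of the labels, and a figure legend of the study names a longer one for this comparison. All samples come from 1 organoid line. The study calls them biological replicates, but the labels do not say how far the cultures were separate, so p-values measure the spread between these samples of 1 line. Folfiri was compared with control to see how these genes stood after chemotherapy.

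Zinc is held in cells mostly by protein. Metallothioneins are small cysteine-rich proteins that bind zinc and copper, and Mt1 and Mt2 are the forms made in most tissues, including the gut. MTF1 is a zinc finger transcription factor that senses free zinc and binds metal response elements (MREs) in the promoters of metallothionein genes and of Slc30a1. Most transporters of the SLC30 family move zinc out of the cytosol, across the plasma membrane or into organelles, with Slc30a9, which exports it from mitochondria, as an exception, and those of the SLC39 family move it into the cytosol.

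Depth, the total count on genes, was between 22103591 and 30098210 per sample. Levels are CPM, counts relative to the library total, after TMM normalization, which scales each library by the bulk of its genes, and differences are log2 fold changes of Folfiri over control from edgeR's quasi-likelihood test. The Benjamini-Hochberg adjustment ran over all 14692 tested genes, and calls are at 0.05. The median gene stood at 0.02 on that log2 scale, and at 0.30 where libraries were scaled by their totals alone, so directions are read relative to that median. Control replicate 1 and Folfiri replicate 3 stood apart from the others of their group, with a chi-square per degree of freedom of at least 11.9 against them, where the remaining pairs gave at most 3.84. Counts on genes of the mitochondrial genome made up 2.09% to 2.36% of control libraries and 3.95% to 4.44% of Folfiri libraries, and the part of this difference in the results was not tested. Epithelial markers were present, with Epcam, Krt8, Krt18, Cdh1 and Vil1 each above 150 CPM in both groups, whereas Krt20 stood at 1.44 and 1.31 CPM. Of the 7 epithelial markers 3 were lower after Folfiri (Epcam, Cdx2 and Krt8, by log2 fold changes of -0.94, -1.53 and -0.27), 1 was higher (Cdh1, 0.21) and Krt18, Krt20 and Vil1 were not called. Of 6 fibroblast markers all 6 stayed under a mean of 1 CPM in both groups, as did 6 of 8 immune, 4 of 5 Paneth cell, 3 of 3 enteroendocrine and 2 of 3 endothelial markers. The immune exceptions were Cd68, at 23.6 and 20.5 CPM and not called, and Ptprc, at 0.396 and 1.06 CPM with a log2 fold change of 1.39. Within the fibroblast list, Col1a1 was called lower, with a log2 fold change of -1.47, and Dcn higher, on 2, 0 and 0 counts in controls and 19, 26 and 20 after Folfiri. The endothelial exception was Cdh5, whose mean was 89.8 ± 29.8 CPM without and 70.6 ± 5.43 CPM with treatment (SD, n = 3 each), and its log2 fold change was -0.35 (edgeR, adjusted p = 0.0967). In bulk RNA, fewer cells of a type and less RNA per cell cannot be told apart.

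After Folfiri, 4 of the 7 genes were higher (Mt2, Mtf1, Slc30a1 and Slc39a4), 2 were lower (Mt1 and Slc39a14) and 1, Slc39a10, did not pass the threshold. The background was high, since 79.1% of all tested genes passed it, 40.3% higher and 38.8% lower. A call of 6 in 7 is therefore close to the share among all genes, and the genes are described below 1 by 1. The median log2 fold change of the 7 was 0.94, against 0.02 over all tested genes. The 7 genes were chosen with earlier results of these data known, so this median is a description only. In 6 of the 7 genes the CPM of the groups did not overlap, as in 81.4% of tested genes. Changes of at least 1 on the log2 scale that passed the threshold were seen in 3 of the 7 (Mt2, Mtf1 and Slc39a4) and in 36.3% of tested genes.

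**Figure D1:**
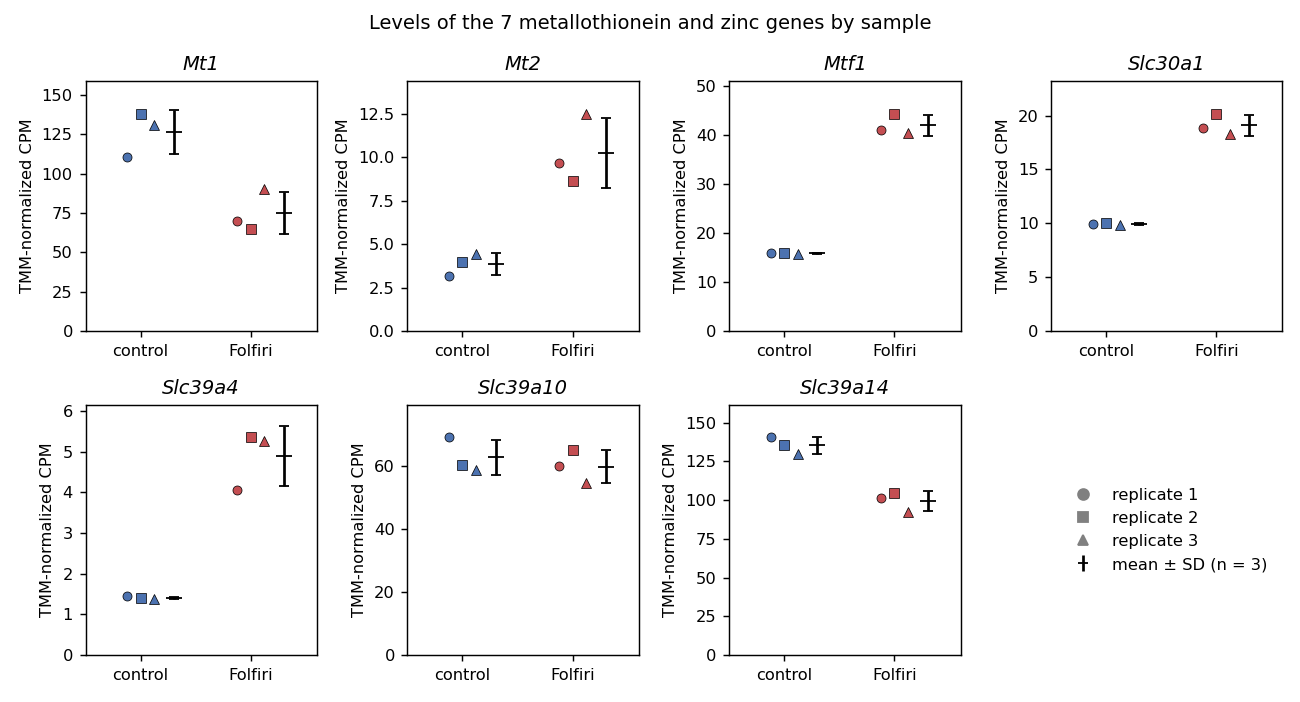
TMM-normalized CPM (y axis, from 0, a scale of its own in each panel) of the 7 genes in the control and Folfiri samples. Each point is 1 library and the bars are mean ± SD (n = 3). Mt1 and Slc39a14 lie lower after Folfiri in every library, Mt2, Mtf1, Slc30a1 and Slc39a4 lie higher in every library, and the groups of Slc39a10 overlap.

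The metallothionein genes moved in opposite directions. Mt1 (ENSMUSG00000031765) lies on the plus strand of chromosome 8 of GRCm38 from 94179082 to 94180327, and per length of exon it had the highest level of the 7 in both groups when all exonic bases were counted. Its level was 111, 138 and 131 CPM in the controls, in replicate order, and 70.0, 65.1 and 90.1 CPM in the Folfiri libraries. Every treated library lay below every control library, the nearest being Folfiri replicate 3 and control replicate 1, which are also the libraries that stood apart. The group means were 126 ± 14.1 and 75.1 ± 13.3 CPM (SD, n = 3 each), and Mt1 fell by 0.75 on the log2 scale (edgeR, SE 0.12, adjusted p = 0.000213). Without those 2 libraries the log2 fold change was -0.996.

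Mt2 (ENSMUSG00000031762) is the neighbour of Mt1 on the same strand of chromosome 8, from 94172664 to 94173568. It stood at 3.17, 3.96 and 4.42 CPM in controls and at 9.66, 8.62 and 12.5 CPM after Folfiri, and every treated library lay well above the highest control. These levels rest on 86 to 99 counts per control library and 267 to 412 per treated library. The means were 3.85 ± 0.634 and 10.3 ± 2.01 CPM (SD, n = 3 each), equal to a log2 fold change of 1.43 (edgeR, SE 0.18, adjusted p = 2.59e-05) or 2.69-fold.

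Part of the Mt2 count is uncertain. Of the 588 exonic bases of Mt2, 432 overlap the single exon of Gm45774, an antisense gene on the opposite strand. The library kit that the labels name does not mark strand, so reads of Mt2 and of Gm45774 in this stretch cannot be told apart. How the counting treated reads that lie on more than 1 gene is not given in the sources used here, and the Mt2 level may rest on as few as 156 exonic bases. Gm45774 was not analysed here, and its part in the Mt2 count was not tested. The longest run of identical bases between transcripts of Mt1 and Mt2 was 20, that of Mt2 with Pip5k1a was 33 and that of Mt1 with Mt3 was 27.

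Within each library, Mt1 and Mt2 can be compared without any scaling between libraries. The ratio of Mt1 to Mt2 counts was 35.0, 34.8 and 29.5 in the controls and 7.25, 7.55 and 7.21 in the Folfiri libraries, each in replicate order. The groups lay far apart and the treated libraries were nearly equal, Folfiri replicate 3 included, although both of its metallothionein levels were the highest of its group. On the log2 scale the ratio averaged 5.04 ± 0.14 for the controls and 2.87 ± 0.04 for the Folfiri libraries (SD, n = 3 each), a difference of -2.17, or 4.50-fold (two-sided exact permutation p = 0.1, which is the lowest value possible with 3 libraries a group). Leaving out 1 library at a time kept the difference between -2.25 and -2.13. Mt2 made up 2.95% ± 0.283 of the counts on both genes without treatment and 12.0% ± 0.268 with it (SD, n = 3 each). The summed level of both genes followed Mt1, with 130 ± 14.6 CPM without treatment and 85.3 ± 15.3 CPM with it (SD, n = 3 each).

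**Figure D2:**
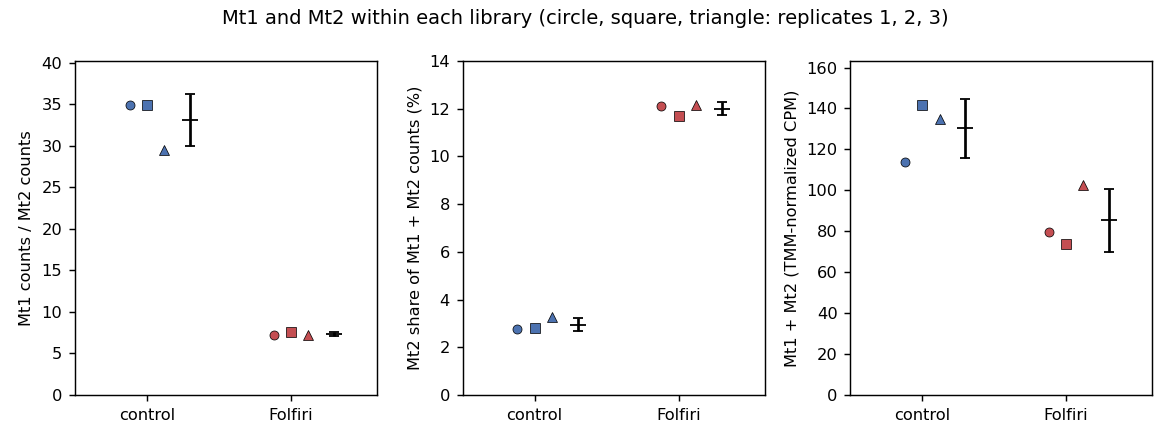
Ratio of Mt1 to Mt2 counts (left), share of Mt2 in the counts on both genes in percent (middle) and their summed TMM-normalized CPM (right) in control and Folfiri libraries. Points are libraries and bars are mean ± SD (n = 3). The ratio lies from 29.5 to 35.0 for control libraries and from 7.21 to 7.55 for treated ones.

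The promoter windows of Mt1, Mt2 and Slc30a1 are shown because these genes are the textbook targets of MTF1 and differed in direction. Each line gives 300 bases of RefSeq sequence on build GRCm38.p6, plus strand, 5′ to 3′, with 250 bases before the annotated start and 50 from it on. Capitals mark matches to the MRE core, searched on both strands as TGCACNC and TGCGCNC.
Mt1 (chr8:94178839-94179138): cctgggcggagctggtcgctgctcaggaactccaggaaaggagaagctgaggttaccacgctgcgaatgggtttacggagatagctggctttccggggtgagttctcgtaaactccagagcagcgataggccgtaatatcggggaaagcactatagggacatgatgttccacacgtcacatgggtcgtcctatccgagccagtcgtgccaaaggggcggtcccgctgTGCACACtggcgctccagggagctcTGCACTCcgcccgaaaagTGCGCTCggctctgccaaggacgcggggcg
Mt2 (chr8:94172368-94172667): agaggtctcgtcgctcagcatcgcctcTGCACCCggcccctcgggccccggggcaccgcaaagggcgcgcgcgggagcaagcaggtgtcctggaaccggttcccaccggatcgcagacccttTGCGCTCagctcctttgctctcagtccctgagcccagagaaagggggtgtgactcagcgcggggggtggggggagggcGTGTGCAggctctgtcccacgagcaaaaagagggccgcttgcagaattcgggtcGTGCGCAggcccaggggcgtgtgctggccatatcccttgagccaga
Slc30a1 (chr1:191906531-191906830): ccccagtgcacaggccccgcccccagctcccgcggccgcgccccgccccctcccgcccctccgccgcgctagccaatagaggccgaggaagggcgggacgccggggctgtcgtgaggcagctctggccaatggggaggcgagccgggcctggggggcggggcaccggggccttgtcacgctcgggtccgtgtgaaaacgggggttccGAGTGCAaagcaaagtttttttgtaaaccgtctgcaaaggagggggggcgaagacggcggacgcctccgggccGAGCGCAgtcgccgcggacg

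The Mt2 window held 4 MRE cores, the Mt1 window 3 and the Slc30a1 window 2. Of all 32851 promoter windows of this length, 25.7% held at least 1, 6.14% at least 2, 1.31% at least 3 and 0.295% at least 4. The windows of Mt3 and Mt4 held 1 each, and those of Mtf1 and Slc39a10 held none, which says only that these letters are not in these windows. The core of the antioxidant response element, searched as TGACNNNGC on both strands, was found once in the windows of Mt2 and of Slc30a1 and not in that of Mt1, and 12.4% of all windows held it. It did not overlap an MRE core there. GENCODE also places starts of shorter Mt1 transcripts downstream of this window, so the Mt1 window does not cover the bases before each of its starts. Both motifs may thus lie next to such a start of Mt1 and be missed here. The differences in motif counts between Mt1 and the other genes hold for these windows only, not for their promoters as a whole. Of the 7 genes with Mt3 and Mt4, 7 of 9 had a window. Slc39a4 and Slc39a14 did not. A match is a description of letters and does not show binding.

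**Figure D3:**
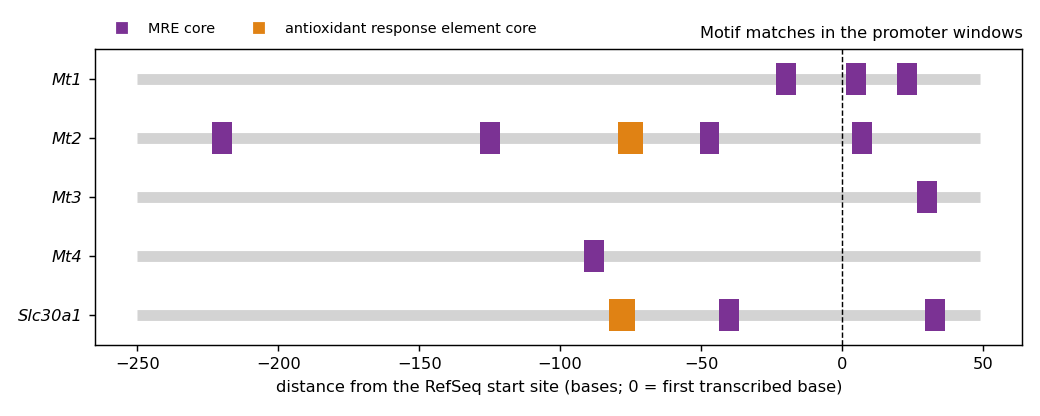
Position of MRE cores (purple) and antioxidant response element cores (orange) in the promoter windows of the metallothionein genes and Slc30a1, in bases from the RefSeq start. Grey bars are the windows. The Mt2 window holds 4 MRE cores, the Mt1 window 3 and the Slc30a1 window 2.

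Mtf1 (ENSMUSG00000028890), the zinc-sensing factor itself, lies on the plus strand of chromosome 4 from 124802104 to 124849800. Its level was 16.0, 15.9 and 15.8 CPM in the control libraries and 41.1, 44.4 and 40.5 CPM after Folfiri. The libraries of each group lay close together and the groups were wide apart. The means were 15.9 ± 0.119 and 42.0 ± 2.08 CPM (SD, n = 3 each), equal to a log2 fold change of 1.40 (edgeR, SE 0.08, adjusted p = 9.46e-08) or 2.64-fold. Of the 8907 exonic bases of Mtf1, 721 overlap 1110065P20Rik on the opposite strand, which averaged 4.91 CPM without treatment and 3.34 CPM with it.

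Slc30a1 (ENSMUSG00000037434), which exports zinc across the plasma membrane, lies on the plus strand of chromosome 1 from 191906767 to 191913247. It stood at 9.97, 10.0 and 9.82 CPM in controls and at 18.8, 20.2 and 18.3 CPM after Folfiri. The treated libraries were thus all close to 2-fold above the controls. The means were 9.94 ± 0.111 and 19.1 ± 0.977 CPM (SD, n = 3 each), equal to a log2 fold change of 0.94 (edgeR, SE 0.09, adjusted p = 4.92e-06). An antisense gene, 1700034H15Rik, shares 468 of the 5244 exonic bases of Slc30a1 and rose from 0.123 to 1.39 CPM. How reads in the shared bases were counted is not known, and the part of 1700034H15Rik in the Slc30a1 count was not tested.

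The other SLC30 genes were listed as Slc30a2 to Slc30a10. Of these 9 genes, 6 were tested, and 2 were higher and 4 lower after Folfiri. All 6 were thus called, where 79.1% of all tested genes were, 40.3% higher and 38.8% lower. Their median log2 fold change was -0.58, against 0.02 over all tested genes. The higher ones were Slc30a5 and Slc30a6, which together form the zinc carrier of the early secretory pathway. Slc30a5 went from 54.9 to 84.1 CPM and Slc30a6 from 10.7 to 20.6 CPM, log2 fold changes of 0.62 and 0.95.

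The SLC30 genes that fell included those with the highest levels per length of exon. Slc30a9, the mitochondrial carrier, went from 384 ± 16.2 to 169 ± 7.51 CPM (SD, n = 3 each), and fell by 1.19 on the log2 scale (edgeR, SE 0.07, adjusted p = 1.54e-07). Slc30a4, which loads endosomal vesicles, went from 235 to 149 CPM (log2 fold change -0.66), and Slc30a7, of the Golgi, from 45.2 to 32.1 CPM (log2 fold change -0.49). The steepest fall was that of Slc30a2, which fills secretory granules with zinc and is known from Paneth cells. It stood at 17.1, 14.8 and 15.5 CPM in controls and at 3.49, 3.32 and 3.91 CPM after Folfiri, for a log2 fold change of -2.14 (edgeR, SE 0.12, adjusted p = 9.18e-08). Of the Paneth cell markers, Lyz1 and Defa17 had no row with a count and Defa24 and Ang4 were under 0.1 CPM, and the summed level of the list went from between 4.83 and 6.12 CPM to between 2.58 and 4.002 CPM, nearly all of it Mmp7.

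Among the importers, Slc39a4 (ENSMUSG00000063354) had the largest change of the 7 genes. It encodes the apical zinc importer of the intestine, whose loss causes acrodermatitis enteropathica in humans, and it lies on the minus strand of chromosome 15 from 76612383 to 76617384. Its level was 1.44, 1.40 and 1.39 CPM in the control libraries and 4.06, 5.36 and 5.28 CPM after Folfiri, on 27 to 40 and 121 to 174 counts. All treated libraries lay well above the controls, although the level remained the lowest of the 7 genes. The means were 1.41 ± 0.027 and 4.90 ± 0.729 CPM (SD, n = 3 each), equal to a log2 fold change of 1.79 (edgeR, SE 0.18, adjusted p = 4.30e-06) or 3.47-fold.

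Slc39a14 (ENSMUSG00000022094) carries zinc, iron and manganese and lies on the minus strand of chromosome 14 from 70303469 to 70351425. It stood at 141, 136 and 129 CPM in controls and at 102, 105 and 92.3 CPM after Folfiri. The groups did not overlap, with means of 135 ± 5.56 and 99.6 ± 6.46 CPM (SD, n = 3 each). It fell by 0.44 on the log2 scale (edgeR, SE 0.07, adjusted p = 0.000219). This call depended on the scaling. With total counts only the log2 fold change was -0.17 and the adjusted p 0.0918, while the difference from the median of all genes was -0.46 in the TMM fit and -0.47 with total counts.

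Slc39a10 (ENSMUSG00000025986), an importer of the plasma membrane that MTF1 is known to repress when zinc is ample, lies on the minus strand of chromosome 1 from 46807544 to 46892852. Its level was 69.1, 60.5 and 58.8 CPM in controls and 59.9, 65.0 and 54.6 CPM after Folfiri, and the groups overlapped. The log2 fold change was -0.07 with a 95% confidence interval from -0.27 to 0.13 (adjusted p = 0.488, edgeR). Changes beyond that range lie outside the interval, and smaller ones in either direction remain possible. Its sign turned with scaling by total counts only, where it was 0.20.

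Of the 11 other SLC39 genes, 9 were tested, and 6 were higher and 3 lower, against 40.3% higher and 38.8% lower among all tested genes. Their median log2 fold change was 0.46, against 0.02 over all genes. Slc39a6, which forms a complex with the Slc39a10 product, rose from 14.7 ± 2.59 to 31.1 ± 1.87 CPM (SD, n = 3 each), equal to a log2 fold change of 1.07 (edgeR, SE 0.12, adjusted p = 1.20e-05), so that the partners differed in what the test called. The importers Slc39a3 and Slc39a13 had log2 fold changes of 0.93 and 0.91, Slc39a9, of the Golgi, 0.46, and Slc39a7, which releases zinc from the endoplasmic reticulum, 0.34. Slc39a7 shares most of its exonic bases with another gene, and its call was lost without Folfiri replicate 2 (log2 fold change 0.28). Slc39a5 had means of 0.198 and 0.423 CPM, and its call was lost with no filter on low counts, with DESeq2 and without any 1 of control replicate 1, control replicate 3 or Folfiri replicate 3, where it ranged from 0.78 to 1.14. Without both control replicate 1 and Folfiri replicate 3 it was 0.54 and not called.

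The importers that fell were led by Slc39a8, a carrier of zinc and manganese and the closest relative of Slc39a14. It stood at 93.3, 75.3 and 78.4 CPM in controls and at 28.2, 29.3 and 27.1 CPM after Folfiri, for a log2 fold change of -1.55 (edgeR, SE 0.09, adjusted p = 1.46e-07). The treated libraries were nearly equal and far below the controls. Slc39a11 went from 9.57 to 3.31 CPM, a log2 fold change of -1.53. Slc39a1, a widely expressed importer, went from 124 to 111 CPM with a log2 fold change of -0.16 (adjusted p = 0.0401, edgeR), and this call was lost with upper quartile scaling, with no filter, with the replicate block and without any 1 of control replicate 2, control replicate 3, Folfiri replicate 1 or Folfiri replicate 2. Its sign turned with total counts only, to 0.12. Most of the Slc39a7 value is uncertain, since 2084 of its 2584 exonic bases overlap Gm20427 on the same strand. On the opposite strand, other genes overlap 1165 and 637 of the 11116 exonic bases of Slc30a7, 459 of 10155 of Slc39a9, 215 of 4869 of Slc39a13 and 130 of 5482 of Slc30a4.

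**Figure D4:**
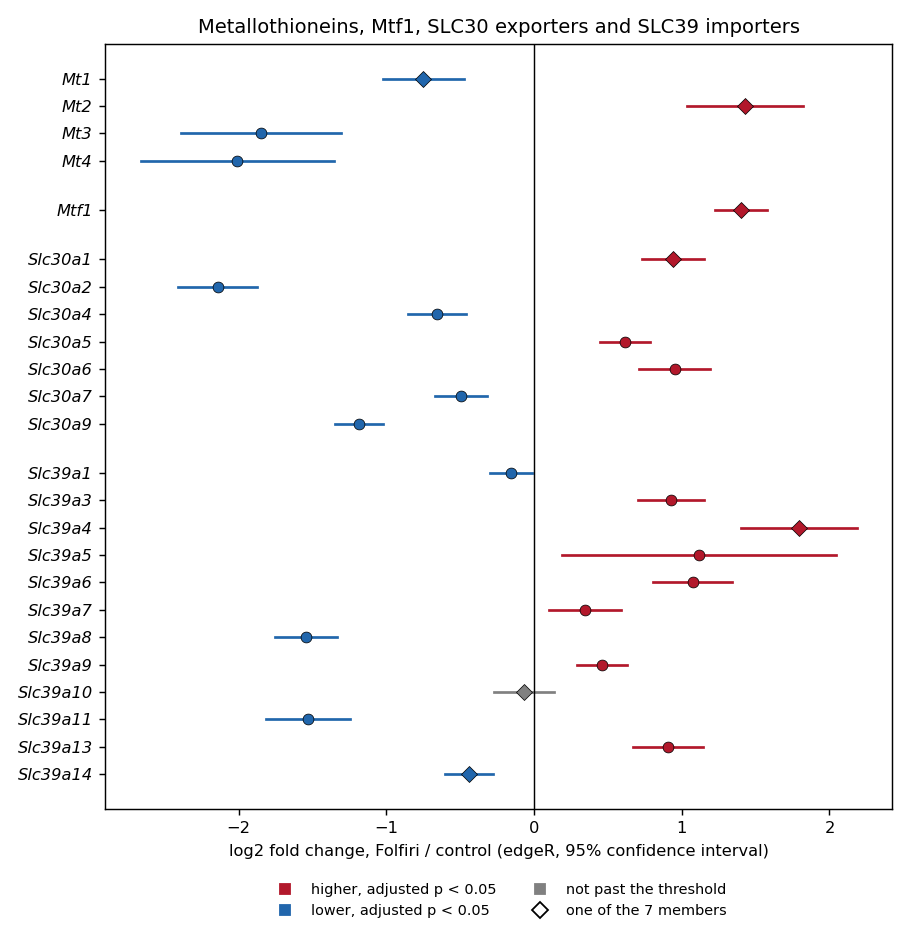
Log2 fold changes of Folfiri over control (x axis, edgeR) with 95% confidence intervals for the metallothioneins, Mtf1 and the tested SLC30 and SLC39 genes. Diamonds are the 7 genes followed here, and color gives the direction of the calls. Mt2 at 1.43 lies opposite the other metallothioneins, Slc30a2 at -2.14 is the lowest and Slc39a4 at 1.79 the highest.

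Per length of exon the order of the 7 genes could be set side by side, in CPM per kilobase. In controls, Mt1 led at 101 ± 11.3, followed by Slc39a14 at 12.8 ± 0.527, Slc39a10 at 10.3 ± 0.909, Mt2 at 6.55 ± 1.08, Slc30a1 at 1.90 ± 0.021, Mtf1 at 1.79 ± 0.013 and Slc39a4 at 0.454 ± 0.009 (SD, n = 3 each). No neighbours in this order overlapped over the 3 libraries. After Folfiri, Mt1 stood at 60.3 ± 10.7 and Mt2 had moved up to second place at 17.4 ± 3.42, ahead of Slc39a10 at 9.81 ± 0.852 and Slc39a14 at 9.44 ± 0.613, whose ranges overlapped. Mtf1 at 4.72 ± 0.234 then stood above Slc30a1 at 3.64 ± 0.186, with Slc39a4 last at 1.58 ± 0.235 (SD, n = 3 each). This order depends on the lengths used, which take in the exonic bases of all transcripts. The spliced coding transcript has 7631 bases for Mtf1 and 4926 for Slc39a14, against 8907 and 10550 exonic bases. The order of Mtf1 against Slc30a1, and of Slc39a14 against Slc39a10 and Mt2, was not set out over such lengths and may differ. Over the spliced coding transcript of 549 bases the Mt1 level was 230 CPM per kilobase in controls and 137 after Folfiri, and over the 156 bases that Mt2 shares with no other gene its level was 24.7 and 65.8. The 1246 exonic bases of Mt1 cover its whole span on the chromosome. With 156 bases for Mt2 and exonic lengths for the others, Mt2 stood second to Mt1 already in controls and above Mt1 after Folfiri. With 549 bases for Mt1, Mt2 stayed below Mt1 after Folfiri, at 65.8 against 137. The place of Mt2 in the order thus depends on the length used. By exonic length, the highest levels among all SLC30 and SLC39 genes in controls were Slc39a1 at 52.6, Slc30a4 at 42.9 and Slc30a9 at 31.0. By that length these were also the highest after Folfiri, at 47.1, 27.2 and 13.6 CPM per kilobase.

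The remaining metallothioneins, Mt3 and Mt4, lie upstream in the same cluster on chromosome 8. Mt3, first described in the brain, stood at 2.41, 3.72 and 3.03 CPM in controls and at 0.872, 0.613 and 1.03 CPM after Folfiri. Mt4, of stratified epithelium, stood at 1.84, 3.28 and 2.57 CPM and at 0.838, 0.420 and 0.637 CPM. Both were low in all libraries and lower in every treated one, with log2 fold changes of -1.85 (edgeR, SE 0.24, adjusted p = 3.94e-05) for Mt3 and -2.01 (edgeR, SE 0.29, adjusted p = 8.77e-05) for Mt4.

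Of 5 further genes described as MTF1 targets, 0 were higher and 3 lower. The share called was 60.0%, below the 79.1% of all tested genes. Ndrg1, which is also a hypoxia-responsive gene, went from 1181 ± 148 to 60.4 ± 4.24 CPM (SD, n = 3 each), equal to a log2 fold change of -4.29 (edgeR, SE 0.12, adjusted p = 1.61e-09). Genes on the opposite strand overlap 419 and 137 of its 6596 exonic bases. Selenoh and Csrp1 had log2 fold changes of -0.99 and -0.49. Selenow and Gclc did not pass the threshold, at 0.05 and -0.01, and with scaling by total counts only both were called higher, at 0.33 and 0.27.

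Metallothioneins also bind copper, and of 15 genes of copper handling 14 were tested, with 7 higher and 6 lower. This was 92.9% called, against 79.1% of all tested genes, and the median log2 fold change was 0.40, against 0.02. Slc31a1, the main copper importer, went from 168 to 64.4 CPM (log2 fold change -1.38), and the copper exporter Atp7b from 15.4 to 1.58 CPM (log2 fold change -3.29). Sod1, the copper and zinc superoxide dismutase, went from 295 to 128 CPM (log2 fold change -1.20), while Ccs, the chaperone that delivers copper to it, went from 11.3 to 24.6 CPM (log2 fold change 1.11). Sco1, an assembly factor of cytochrome c oxidase, rose by a log2 fold change of 1.44, and Commd1, which takes part in copper export, had one of -1.08. Of the 5936 exonic bases of Commd1, 294 overlap Gm28048 on the same strand and 412 overlap Zrsr1 on the opposite one. Steap4, a metalloreductase, had 0 counts in all control libraries and stood at 1.37, 1.78 and 1.24 CPM after Folfiri, at least 11.5-fold higher when the controls are set to a floor of 3 counts per library.

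Over the 6 libraries, the 5 genes of at least 10 CPM whose log2 CPM was most like that of Mt1 were Cox6a1, Prdx2, Ndufb11, Rpl37a and Rpl27-ps2, with Pearson's r from 0.996 to 0.997. The libraries fall into 2 groups and share their scaling, and 919 of 9474 genes compared had an r of at least 0.95. Of the other 6 genes, Slc39a14 had an r of 0.77 with Mt1 and Slc39a10 of -0.06, and the 4 that rose had values from -0.76 for Mt2 to -0.93 for Slc30a1.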

How the data were processed

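RNA sequencing of 6 samples was used, 3 control and 3 Folfiri, grouped by the labels. The genotype of the line is given in part, and the rest is not reported here. According to the submitters' notes and the study's methods, the authors aligned reads with STAR 2.5.2 to GRCm38 with GENCODE annotation, used Rsubread to assign them to genes, and deposited raw counts. Strand setting and treatment of multi-gene reads are not given in the sources used here. Symbols, positions and exonic lengths were taken from an earlier GENCODE release on the same build, which held 24168 of 24190 genes.

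The deposited counts were filtered (filterByExpr defaults), TMM-normalized and tested with the quasi-likelihood test of edgeR 4.0.16 in R 4.3.3. DESeq2 1.42.0 was an alternative. Log2 CPM for correlations used a prior count of 2. The fit was tested on simulated counts in which 200 genes were changed, and it recovered 200 of them with 15 other genes called. The simulation left all other genes unchanged, whereas 79.1% of tested genes were called in the data. It therefore cannot tell how the scaling performs here.

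The members and lists were chosen with earlier results of these data known. The rule for further names took list genes past the threshold that changed by 1 or more on the log2 scale, with at least 1 CPM in 1 group, and SLC30 and SLC39 genes past the threshold with at least 10 CPM. Slc39a5, Selenoh, Csrp1, Selenow and Gclc were named after their values were seen. Floors cover counting error only. The genes most like Mt1 were the 5 with the highest r among tested genes of at least 10 CPM.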

Additional observations from a re-analysis of the deposited data

How the results depend on the processing

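A Wald test in DESeq2, other scalings and filters, a replicate block and leaving out each library gave 14 alternatives for each gene and list, one of which, without both control replicate 1 and Folfiri replicate 3, was chosen after seeing the data. The directions and calls of Mt1, Mt2, Mtf1, Slc30a1 and Slc39a4 held in all 14, with log2 fold changes from -0.996 to -0.47, 1.13 to 1.70, 1.37 to 1.67, 0.91 to 1.22 and 1.73 to 2.07. With total counts only, Slc39a14 was at -0.17 (adjusted p = 0.0918, over a range from 3.02e-08), Slc39a10 at 0.20, and 5 of 5 MTF1 target genes were called in place of 3. The median of all genes moved by about as much in that setting, from 0.02 to 0.30, and the share of higher genes among calls from 51.0% to 63.3%. Slc39a10 was at 0.0622 without both libraries, and across the fits without 1 replicate between -0.13 and 0.0048. The number of genes called stayed between 10630 and 12742 under these alternatives. With the replicate block it was 11499 in place of 11623 and the 6 calls among the 7 genes held, but Slc39a1 lost its call. The same-numbered samples share only a number, with correlations of their deviations from the group means of 0.03, -0.12 and 0.04. Depth limits Slc39a5, Slc39a2, Slc39a12, Slc30a3, Slc30a8 and Slc30a10, each with a mean under 0.5 CPM in both groups.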
